A study of Homo sapiens with 36 samples.

Results

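The cytosolic heat shock genes described here are 10 genes of the 26485 gene symbols counted in each library. They were chosen by symbol, with earlier results of these data known: HSP90AA1, HSP90AB1, HSPA1A, HSPA1B, HSPA8, HSPB1, HSPH1, DNAJB1, BAG3 and HSF1. HSPA1A and HSPA1B have near-identical sequences, so the split of their reads is uncertain and their sum is given beside each. All 10 genes had counts in all 36 libraries and passed the filter on low counts in every comparison.

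The libraries came from the breast cancer line MDA-MB-231 (human, triple-negative), whose source is labelled as a xenograft cell line. UAU cells overexpressed the isoleucine tRNA with the UAU anticodon and carried CRISPR interference (CRISPRi, transcriptional repression by a guided inactive nuclease) against eGFP. GAUi cells carried CRISPRi against isoleucine tRNA of anticodon GAU, with a control overexpression construct. Isoswitch cells carried the UAU overexpression and the GAU CRISPRi together. Control cells carried the eGFP CRISPRi and the control construct. All 4 lines were grown in DMEM with 10% serum and exposed to 100 ug/mL cycloheximide, which holds ribosomes on mRNA, for 5 minutes before freezing. Each line gave a high fraction (heavier polysomes), a low fraction (single ribosomes and the first polysome peak) and total RNA, with 3 libraries (A, B and C) a group. No heat or other chaperone stress is given in the labels. The tRNAs themselves were not analysed here.

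Heat shock proteins of the cytosol fold new proteins and hold damaged ones. HSP70 chaperones bind exposed stretches of a client, J-domain proteins deliver clients and start ATP hydrolysis, and exchange factors release them. HSP90 chaperones then mature kinases and receptors, and small heat shock proteins keep unfolded proteins from clumping. HSF1 is the transcription factor that binds heat shock elements, inverted repeats of a GAA unit, and raises the inducible genes when unfolded proteins accumulate. Many tumour lines keep high levels of these chaperones without heat.

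The promoters of 4 of the 10 genes, each at a start site with at least 1 inverted pair of the unit, are shown to place this element. The pairs are in capitals. The 4 were not picked by the calls below, and BAG3, which was called in some comparisons, held no such pair and is not shown. Sequences are from RefSeq, build GRCh38.p14, the 250 bases before the start site, 5′ to 3′ on the gene's strand: HSPA1B at chr6:31827488-31827737 (+ strand), HSPA1A at chr6:31815293-31815542 (+ strand), HSPB1 at chr7:76302423-76302672 (+ strand) and the second start site of HSP90AA1 at chr14:102087045-102087294 (- strand).
HSPA1B: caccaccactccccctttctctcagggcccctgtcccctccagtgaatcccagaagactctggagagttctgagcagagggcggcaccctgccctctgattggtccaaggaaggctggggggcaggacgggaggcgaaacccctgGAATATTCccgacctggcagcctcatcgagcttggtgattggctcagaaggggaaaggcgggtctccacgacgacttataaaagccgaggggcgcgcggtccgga
HSPA1A: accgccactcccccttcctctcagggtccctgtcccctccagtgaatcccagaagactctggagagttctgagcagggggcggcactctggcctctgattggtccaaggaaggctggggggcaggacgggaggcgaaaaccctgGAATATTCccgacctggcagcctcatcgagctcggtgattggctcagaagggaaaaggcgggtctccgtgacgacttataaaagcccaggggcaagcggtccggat
HSPB1: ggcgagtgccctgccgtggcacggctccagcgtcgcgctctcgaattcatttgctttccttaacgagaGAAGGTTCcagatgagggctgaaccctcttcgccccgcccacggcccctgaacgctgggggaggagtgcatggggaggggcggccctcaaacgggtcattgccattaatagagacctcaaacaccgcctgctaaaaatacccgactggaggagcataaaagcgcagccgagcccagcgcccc
HSP90AA1: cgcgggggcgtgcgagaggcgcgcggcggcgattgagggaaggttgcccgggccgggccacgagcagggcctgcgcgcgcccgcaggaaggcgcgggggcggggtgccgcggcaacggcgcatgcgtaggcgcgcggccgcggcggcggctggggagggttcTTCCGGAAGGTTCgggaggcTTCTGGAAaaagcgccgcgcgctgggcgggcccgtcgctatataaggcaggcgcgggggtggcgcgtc

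Searched for were GAANNTTC and TTCNNGAA, each its own reverse complement, in windows of 250 bases before and 50 bases after a start site, with overlapping matches counted. Of the 10 genes, 9 had a window in the table (HSF1 was the other), with 14 start sites. A match lay in 8 of the 14 windows (57.1%) and in 7 of the 9 genes (77.8%), against 13.5% of all 35116 windows and 16.2% of all 27305 genes. At least 2 matches lay in 4 of the 14 windows, against 1.71% of all windows. HSPA1B had its match at position -105 and HSPA1A at -106, counted back from the start site, in windows that aligned with 277 identical bases, 22 mismatches and 2 gaps. HSPB1 had 1 match at -182. HSP90AA1 had 3 at its second start site, at -88, -83 and -68, the first 2 of which overlap, and none at its other start site. HSP90AB1 and HSPA8 had 4 matches each, and the windows of HSPH1 and BAG3 held none of these letters. The matches describe letters only, and binding was not measured here.

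**Figure D1:**
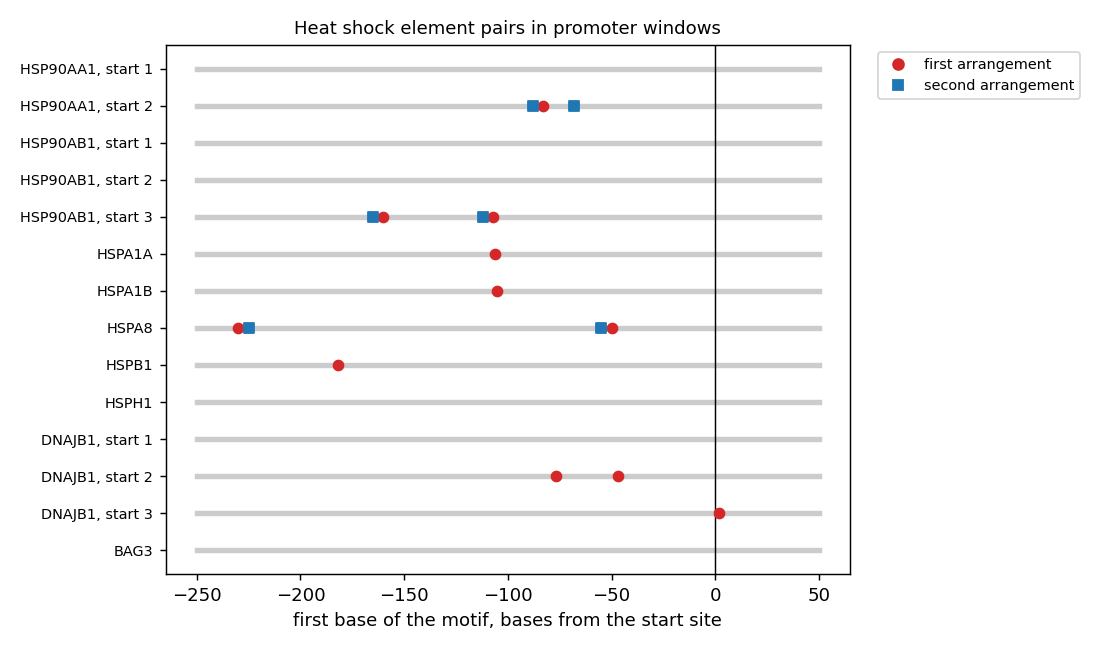
Position of each match to the inverted pair of heat shock element units (x axis, bases from the start site at 0) in the 14 promoter windows of 9 genes (y axis); circles are GAANNTTC, the first arrangement, and squares TTCNNGAA, the second. HSPA1B and HSPA1A carry a match at nearly the same place, and HSPH1 and BAG3 carry none.

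High fraction libraries held 5192464 to 8974001 counts each, low fraction libraries 5310594 to 8234332 and total RNA libraries 6679340 to 8973050. Levels are in CPM, counts relative to scaled library size, so each is a share of a library. In these bulk libraries, fewer cells of a kind and less RNA per cell cannot be told apart. In total RNA, the mesenchymal markers of the line were present, with VIM at 2749 to 3720 CPM and CD44 at 303 to 386 CPM, while of 7 genes taken as absent or low in this line KRT5 was at 0, ESR1, PGR and CDH1 stayed under 0.9 CPM, and ERBB2 (7.53 to 15.4 CPM), EPCAM (10.8 to 17.7) and GATA3 (12.9 to 23.6) were present, at a sum of 37.95 to 48.2 CPM. Summed markers of fibroblasts (2.20 to 5.68 CPM), leukocytes (0.123 to 1.53) and endothelium (2.52 to 5.00) were near 0, with COL3A1, DCN, CD3E and CDH5 at 0. S100A4, a line marker, moved with the GAU CRISPRi, at 208 CPM in GAUi and 282 CPM in isoswitch cells, against 853 CPM in control cells in total RNA (group means), and its part in the results below was not tested. GAUi library A of total RNA and control library B of the low fraction stood apart from their replicates. Whether A, B and C were separate cultures is not in the labels, and the p-values below therefore reflect only how far these libraries spread, which may be technical.

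The 10 genes spanned more than 2 orders of magnitude in control cells. Together they took 0.770 to 1.01% of the counts of a total RNA library, 0.202 to 0.348% of a high fraction library and 0.226 to 0.259% of a low fraction library. The QuantSeq kit counts 1 tag per 3′ end, so CPM does not scale with transcript length. In total RNA of control cells, HSP90AA1 averaged 3544 ± 153 CPM and HSP90AB1 3277 ± 166 CPM (SD, n = 3), with the lowest HSP90AA1 library just above the highest HSP90AB1 library. HSPA8 followed at 372 ± 6.34 CPM, DNAJB1 at 331 ± 3.66, HSPH1 at 237 ± 2.64 and HSPB1 at 226 ± 17.4, with HSPH1 and HSPB1 overlapping. BAG3 had 123 ± 13.2 CPM, HSF1 72.3 ± 1.89, HSPA1B 36.1 ± 3.47 and HSPA1A 16.2 ± 1.66. The sum of the inducible HSP70 pair was thus 52.3 ± 2.81 CPM, below the level of the constitutive HSPA8.

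**Figure D2:**
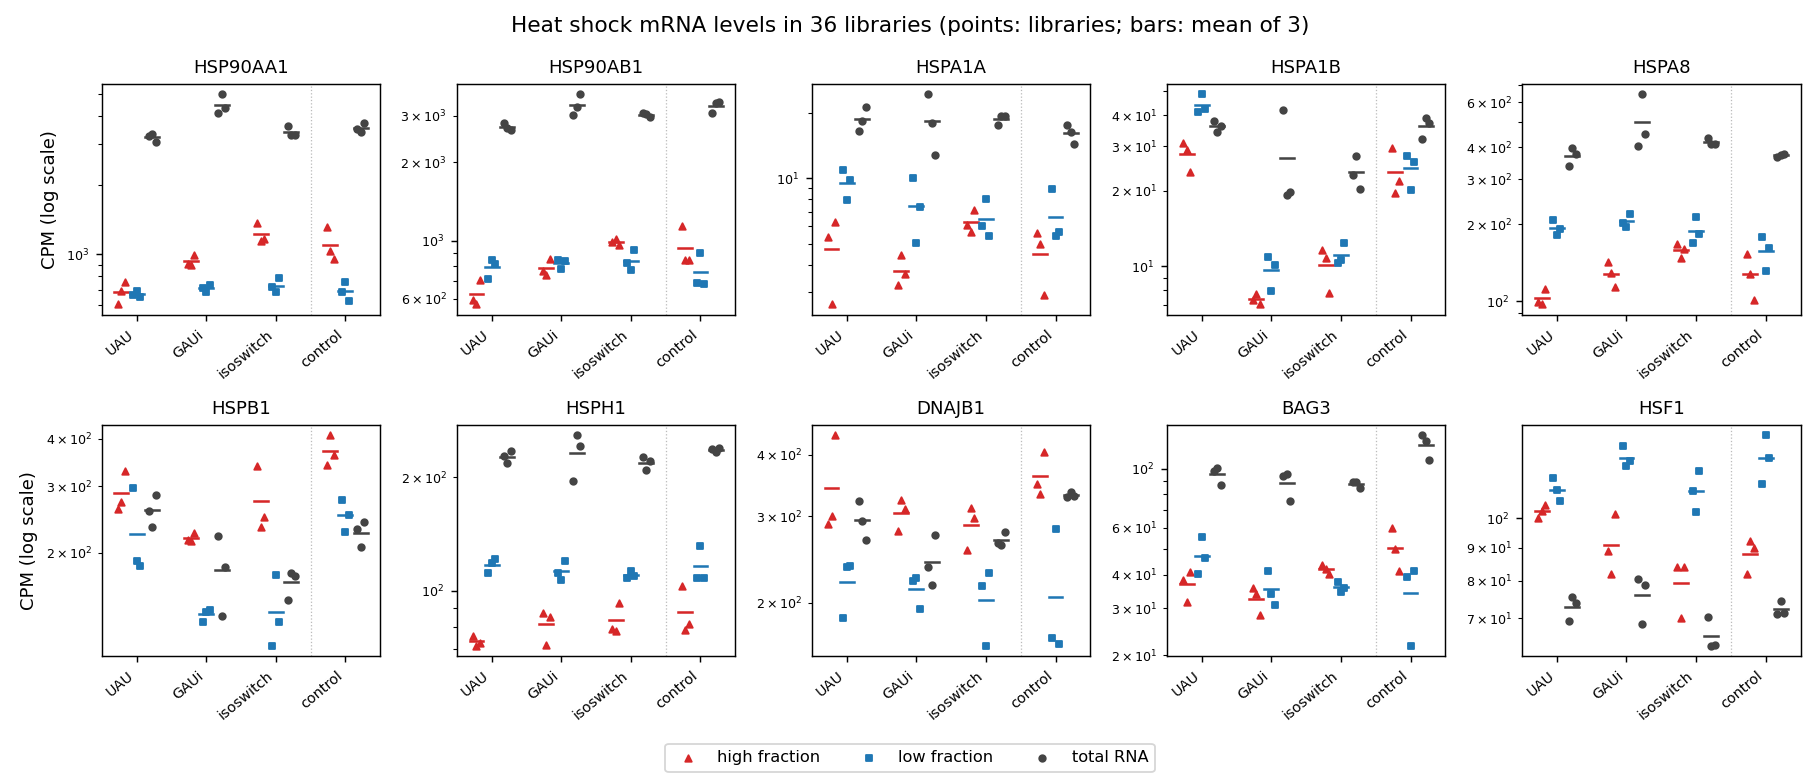
CPM (log axis) of the 10 genes in the 36 libraries, by line on the x axis; triangles are the high fraction, squares the low fraction and circles total RNA, and bars are means of 3 libraries. HSP90AA1 and HSP90AB1 lie far lower in both fractions than in total RNA, while HSPB1, DNAJB1 and HSF1 do not.

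In control cells most of these mRNAs were a smaller share of the fractions than of total RNA. Tested with the edgeR quasi-likelihood test at an adjusted p under 0.05, 7 of the 10 genes were lower and 2 higher in the high fraction than in total RNA, in a comparison that called 51.5% of all genes tested (27.1% lower, 24.4% higher). In the low fraction, a comparison added after values were seen, 8 were lower and 1 higher than in total RNA, against 62.4% of all genes called (33.3% lower, 29% higher). Lower in both fractions were 7 of the 10 genes, against 13% of all genes. At least 2-fold lower in both were 5 of the 10 (HSP90AA1, HSP90AB1, HSPA1A, HSPA8 and BAG3), against 2.56% of all genes. The median log2 fold change of the 10 genes was -1.37 in the high and -1.09 in the low fraction against total RNA, beside -0.02 and -0.04 over all genes. How RNA was shared out between free, monosome and polysome pools was not measured, since each library was scaled to its own total.

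The HSP90 chaperones, the most abundant of the 10, were far lower in both fractions. HSP90AA1, the stress-inducible HSP90 (chromosome 14, 102080742 to 102139749), had 1315, 1031 and 953 CPM in the high fraction, 685, 753 and 628 in the low fraction, and 3514, 3407 and 3709 in total RNA. The fractions did not overlap each other or total RNA, and the low fraction held the least. Its log2 fold change was -1.71 (SE 0.11, adjusted p = 2.11e-08) in the high and -2.31 (SE 0.12, adjusted p = 2.76e-09) in the low fraction against total RNA. HSP90AB1, the constitutive HSP90 (chromosome 6, 44246194 to 44253883), had 1136, 848 and 845 CPM in the high fraction, 693, 903 and 685 in the low fraction and 3087, 3349 and 3394 in total RNA. It fell by 1.81 (SE 0.13, adjusted p = 3.86e-08) and 2.06 (SE 0.13, adjusted p = 1.1e-08) on the log2 scale. Both genes, like HSPA8, have processed pseudogenes, and how reads shared with these were counted is not given in the sources used here.

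The HSP70 chaperones of the set and the exchange factors HSPH1 and BAG3 were lower in the fractions as well. HSPA8, the constitutive HSP70 (chromosome 11, 123057489 to 123062462), had 153, 128 and 101 CPM in the high fraction, 178, 131 and 162 in the low fraction and 365, 373 and 378 in total RNA, a log2 fold change of -1.56 (SE 0.13, adjusted p = 1.6e-07) and -1.20 (SE 0.13, adjusted p = 1.2e-06). HSPH1, an HSP110 exchange factor for HSP70 (chromosome 13, 31134973 to 31162388), was lower by -1.45 and -0.98, and BAG3, an exchange factor that routes clients to autophagy (chromosome 10, 119651380 to 119677819), by -1.29 and -1.79. In all 3 genes the libraries of either fraction lay below every total RNA library. HSPA1A changed by -1.81 and -1.23, HSPA1B by only -0.61 and -0.50, and their sum by -0.90 and -0.69, all called. The low-fraction call of HSPA1B was lost without total RNA control library B (adjusted p = 0.0532).

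HSPB1, DNAJB1 and HSF1 went another way. HSPB1, the small heat shock protein HSP27 (chromosome 7, 76302673 to 76304292), had 340, 408 and 362 CPM in the high fraction, 275, 227 and 252 in the low fraction and 231, 207 and 241 in total RNA. The high fraction lay above both others, by log2 fold changes of 0.69 against total RNA (SE 0.10, adjusted p = 2.69e-05) and 0.49 against the low fraction (SE 0.10, adjusted p = 0.000376). DNAJB1, a J-domain partner of HSP70 (chromosome 19, 14514769 to 14560391), did not pass between high fraction and total RNA (0.11, SE 0.16, adjusted p = 0.577), but was lower in the low fraction (-0.64, SE 0.16, adjusted p = 0.00272). HSF1, on chromosome 8, had 113, 134 and 124 CPM in the low fraction and 71.2, 74.5 and 71.3 in total RNA, a log2 fold change of 0.83 (SE 0.09, adjusted p = 1.57e-06). Its high fraction libraries, at 81.9, 92.2 and 90.1 CPM, also lay above total RNA (0.27, SE 0.09, adjusted p = 0.0239), a call lost without total RNA library A (adjusted p = 0.0625) or C (0.0708), or high fraction library B (0.0698) or C (0.068). The low fraction of HSPB1 against total RNA was at 0.20 (SE 0.10, adjusted p = 0.0829) and passed without low fraction library B (adjusted p = 0.00207). It also passed by DESeq2 (0.0446), with another scaling of the libraries (RLE, 0.0397) and on the compared groups alone (0.0468).

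Between the fractions, the high fraction against the low fraction of control cells called 7 of the 10 genes, beside 66% of all genes tested (32.8% higher, 33.2% lower). HSP90AA1 (0.61, SE 0.11), HSPB1 (0.49), DNAJB1 (0.75, SE 0.16) and BAG3 (0.50, SE 0.19, adjusted p = 0.0281) were higher in heavier polysomes. HSF1 (-0.56, SE 0.09, adjusted p = 5.91e-05), HSPH1 (-0.47, SE 0.11) and HSPA8 (-0.37, SE 0.13, adjusted p = 0.0216) were lower there. HSP90AB1 (0.24, adjusted p = 0.101), HSPA1A (-0.58, adjusted p = 0.0576), HSPA1B (-0.11, adjusted p = 0.558) and the sum of the pair (-0.21, adjusted p = 0.251) did not pass. HSPA1A did pass by DESeq2 (adjusted p = 0.0471) and with RLE scaling (0.0498), and HSP90AB1 with no filter on low counts (0.00118). On the compared groups alone BAG3 was lost (0.0568). Without low fraction library B, HSP90AB1 (adjusted p = 0.000609), HSPA1A (0.0156) and the sum (0.0296) passed while BAG3 did not (log2 fold change 0.26, adjusted p = 0.0732). BAG3 was also lost without high fraction library A (0.139) or B (0.0643), and HSPA8 without low fraction library A (0.0959) or C (0.0629) or high fraction library C (-0.22, adjusted p = 0.131), while HSPA1A (0.0389) and the sum (0.0306) passed without high fraction library A.

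**Figure D3:**
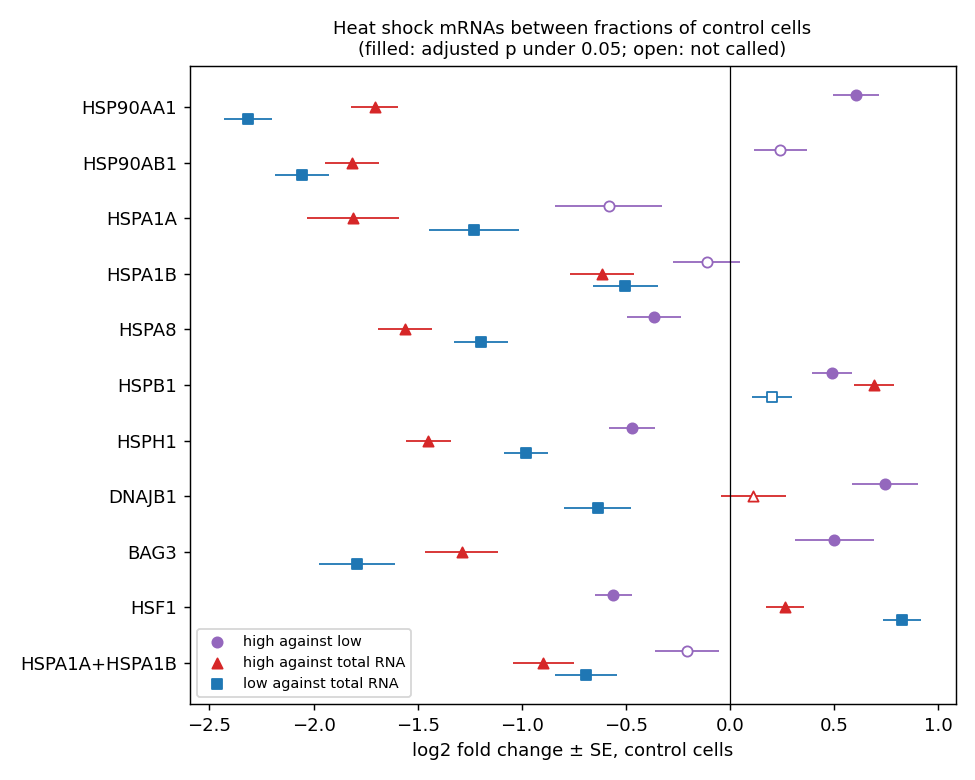
Log2 fold change ± SE (x axis) of the 10 genes and the summed pair between fractions of control cells (3 libraries each); filled symbols have an adjusted p under 0.05. HSP90AA1 and HSP90AB1 lie furthest left in the low fraction against total RNA, with HSPA1A level with HSP90AB1 in the high fraction, and HSPB1 and HSF1 lie to the right of 0 there.

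Against control, 0, 4 and 1 of the 10 genes passed in total RNA of UAU, GAUi and isoswitch cells. In the same order, 1, 2 and 2 passed in the low fraction and 5, 3 and 2 in the high fraction. The shares of all genes called differed by fraction too. They were 0.914, 10.1 and 4.05% in total RNA, 0.691, 3.4 and 2.58% in the low fraction and 28.7, 10.1 and 11% in the high fraction. In UAU cells none of the 10 passed in total RNA, where 0.914% of all genes did; at an unadjusted p under 0.05 there were 2 (HSP90AB1 and BAG3), and DESeq2 also called none, while a fit on UAU and control libraries alone called HSP90AB1 (-0.24, adjusted p = 0.00594), BAG3 (-0.33, 0.00825) and HSPB1 (0.22, 0.0414). In GAUi cells 4 of 10 passed, with 10.1% of all genes called (4.38% higher, 5.72% lower), and in isoswitch cells 1 of 10, which was lower, with 4.05% (2.76% lower). The interaction, (isoswitch minus GAUi) minus (UAU minus control), called none of the 10 in total RNA by edgeR or DESeq2 (3 at an unadjusted p under 0.05), and 0.0243% of all genes.

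**Figure D4:**
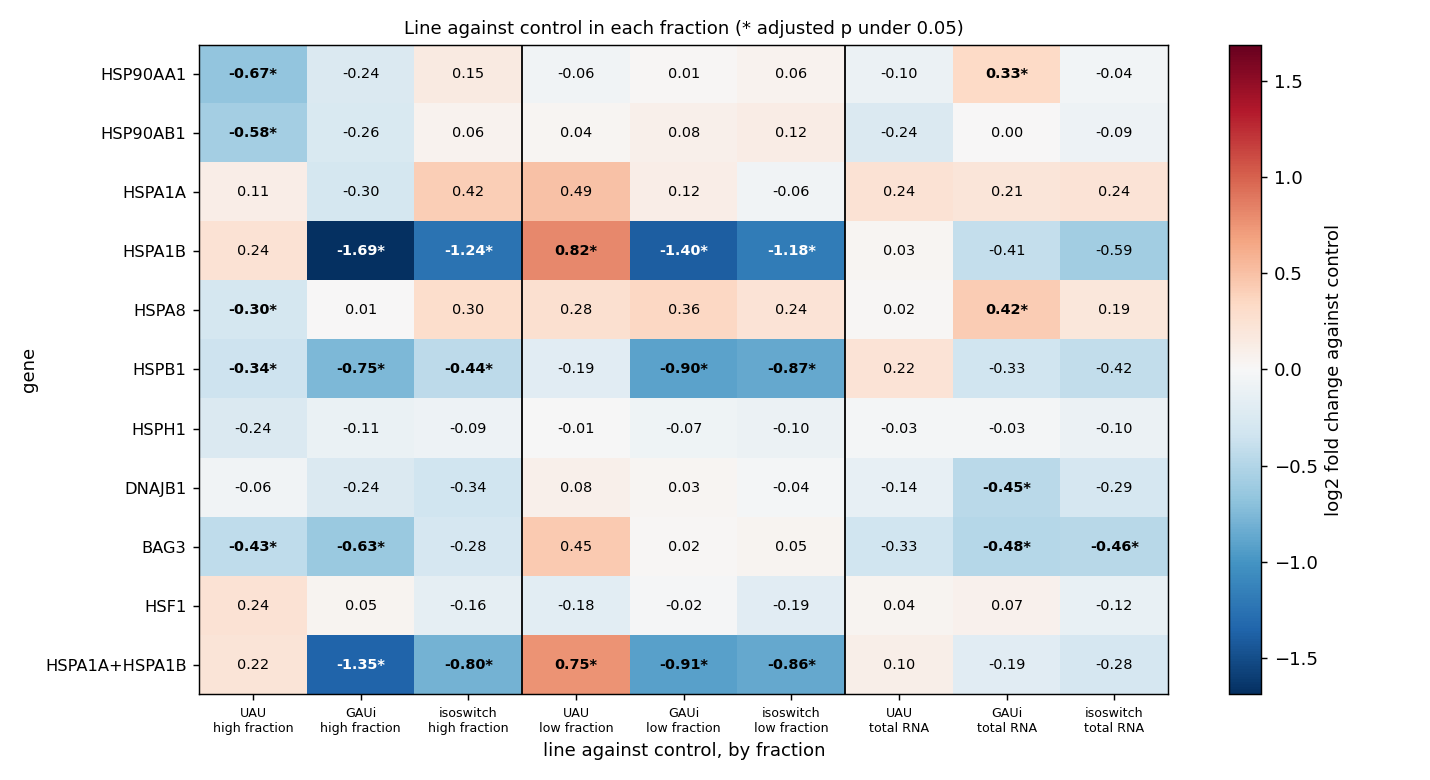
Log2 fold change of each line against control (x axis: line and fraction; 3 libraries a group) for the 10 genes and the summed pair (y axis); an asterisk marks an adjusted p under 0.05. HSPA1B and HSPB1 are lower in both fractions of GAUi and isoswitch cells, and the HSP90 genes are lower in the high fraction of UAU cells.

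The 4 genes that passed in total RNA of GAUi cells went in both directions. HSP90AA1 had 4112, 4968 and 4327 CPM in GAUi cells, against 3514, 3407 and 3709 CPM in control cells, with no overlap (log2 fold change 0.33, SE 0.08, adjusted p = 0.00832). HSPA8 had 403, 645 and 451 CPM in GAUi cells, against 365, 373 and 378 CPM in control cells (0.42, SE 0.12, adjusted p = 0.0351), with GAUi library B far above the others. The value of HSPA8 without that library was 0.18 (adjusted p = 0.123), and its call was also lost without control library A (0.123), B (0.115) or C (0.0953), as was that of HSP90AA1 without control library B (0.0622). In a fit on GAUi and control libraries alone HSP90AA1 (0.0962), HSPA8 (0.169) and BAG3 (0.0625) did not pass.

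DNAJB1 had 236, 218 and 274 CPM in GAUi cells, against 328, 335 and 330 CPM in control cells, with no overlap (log2 fold change -0.45, SE 0.09, adjusted p = 0.0024). BAG3 had 93.4, 95.3 and 75.6 CPM in GAUi cells and 89.4, 89.2 and 84.5 CPM in isoswitch cells, against 133, 127 and 108 CPM in control cells. All 6 libraries lay below the control libraries, with log2 fold changes of -0.48 (SE 0.11, adjusted p = 0.00722) in GAUi and -0.46 (SE 0.11, adjusted p = 0.0159) in isoswitch cells. BAG3 was lost in GAUi cells without control library A (0.0551), and in isoswitch cells without control library A (0.11) or B (0.0819) or isoswitch library A (0.058), B (0.0673) or C (0.0865). In isoswitch cells DNAJB1 (-0.29, adjusted p = 0.072) and HSPB1 (-0.42, adjusted p = 0.0764) did not pass by edgeR and did by DESeq2 (adjusted p = 0.0479 and 0.0457), with no filter (0.0498 and 0.000863) and on isoswitch and control libraries alone (1.04e-05 and 2.31e-07), where HSPA8 (0.19, 0.00179) passed too.

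HSPA1B (chromosome 6, 31827738 to 31830254), the stress-inducible HSP70 gene, had the largest changes among the 10. In the high fraction it had 7.35, 7.72 and 7.05 CPM in GAUi cells and 11.6, 10.8 and 7.83 CPM in isoswitch cells, against 29.6, 19.5 and 21.8 CPM in control cells. Neither line overlapped control, at log2 fold changes of -1.69 (SE 0.18, adjusted p = 3.38e-07) and -1.24 (SE 0.17, adjusted p = 1.39e-05). In the low fraction it had 10.9, 7.96 and 10.1 CPM in GAUi cells and 10.3, 10.6 and 12.4 CPM in isoswitch cells, against 27.6, 20.2 and 26.1 CPM in control cells (-1.40, SE 0.16, adjusted p = 7.52e-05, and -1.18, SE 0.16, adjusted p = 0.000404). Again no library of either line reached the lowest control library.

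In total RNA the HSPA1B difference was smaller and did not pass, a call that depended on the fit. It had 41.8, 19.2 and 19.8 CPM in GAUi cells and 23.03, 27.5 and 20.4 CPM in isoswitch cells, against 32.2, 39.0 and 37.1 CPM in control cells. GAUi library A, which stood apart from its replicates over all genes, lay above every control library, and the other GAUi libraries and all isoswitch libraries lay below. The log2 fold changes were -0.41 (SE 0.21, adjusted p = 0.227) in GAUi and -0.59 (SE 0.21, adjusted p = 0.144) in isoswitch cells. HSPA1B passed at nearly the same values with no filter on low counts in GAUi (-0.40, adjusted p = 0.028) and isoswitch cells (-0.59, 0.000531), and on isoswitch and control libraries alone (-0.59, 2.68e-05). Without GAUi library A, HSPA1B was at -0.89 (adjusted p = 3.29e-05), the sum of the pair at -0.57 (0.000497) and HSPB1 at -0.50 (0.000945), all called.

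In UAU cells HSPA1B moved the opposite way in the low fraction, with 41.3, 48.5 and 42.3 CPM against 27.6, 20.2 and 26.1 CPM in control cells. No libraries overlapped, and it was the only one of the 10 genes to pass there (log2 fold change 0.82, SE 0.14, adjusted p = 0.0134), beside 0.691% of all genes (0.329% higher). It was lost without UAU library B (0.74, adjusted p = 0.0955), and in a fit on UAU and control libraries alone (0.81, adjusted p = 0.127). In total RNA, where UAU cells had 37.8, 34.2 and 36.3 CPM, and in the high fraction, at 31.01, 29.1 and 23.8 CPM, it overlapped control (0.03, adjusted p = 0.973, and 0.24, adjusted p = 0.221). Without high fraction control library A the high fraction difference was 0.46 and passed (adjusted p = 0.0351).

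HSPA1A (chromosome 6, 31815543 to 31817942), 9795 bases from HSPA1B, passed in none of the 9 comparisons of a line with control by edgeR or DESeq2. Its counts were low, from 13 to 224 a library. In the high fraction it had 3.22, 4.43 and 3.61 CPM in GAUi cells and 6.09, 5.64 and 7.11 CPM in isoswitch cells, against 5.60, 4.99 and 2.91 CPM in control cells. The log2 fold changes were -0.30 (SE 0.28, adjusted p = 0.545) and 0.42 (SE 0.25, adjusted p = 0.318).

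The sum of the pair does not depend on how counted reads were split between the copies. Reads matching both copies would be missing from it if discarded, and their handling is not given in the sources used here. The sum had the sign of HSPA1B where it passed. In the high fraction it had 10.6, 12.2 and 10.7 CPM in GAUi cells and 17.7, 16.4 and 14.9 CPM in isoswitch cells, against 35.2, 24.5 and 24.7 CPM in control cells (-1.35, SE 0.15, adjusted p = 9.9e-07, and -0.80, SE 0.14, adjusted p = 0.00039). Low fraction values were -0.91 (SE 0.16, adjusted p = 0.00289) in GAUi, -0.86 (SE 0.16, adjusted p = 0.00512) in isoswitch and 0.75 (SE 0.15, adjusted p = 0.0276) in UAU cells. The last was lost without control library C (0.0698) or UAU library B (0.122) or C (0.0799). A fit on UAU and control libraries alone lost it too (0.75, adjusted p = 0.157). In the high fraction of UAU cells the sum passed without control library A (0.43, adjusted p = 0.0212). In total RNA it passed in no line (0.10, -0.19 and -0.28 in UAU, GAUi and isoswitch cells), except in isoswitch cells on isoswitch and control libraries alone (adjusted p = 0.0137) and in GAUi cells as given above.

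Of the counts of the pair, HSPA1B held 66.4% ± 3.03 in GAUi, 61.2% ± 7.66 in isoswitch and 85.4% ± 6.27 in UAU cells in the high fraction, against 84.0% ± 4.29 in control cells (SD, n = 3 each). The low fraction gave 57.0% ± 4.73, 63.2% ± 6.31 and 82.1% ± 3.51, against 78.9% ± 3.28 in control cells. In total RNA it held 58.4% ± 6.08, 55.5% ± 3.91 and 65.9% ± 3.34, against 69.0% ± 3.91 in control cells. GAUi and isoswitch shares lay below control in all 3 libraries of each fraction, at p = 0.1 in an exact two-sided permutation test, the smallest that 3 libraries against 3 can give (0.15 adjusted over 9 comparisons). The UAU shares overlapped control (p = 0.3, 0.4 and 0.8 in the same exact test for total RNA, low and high fraction).

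**Figure D5:**
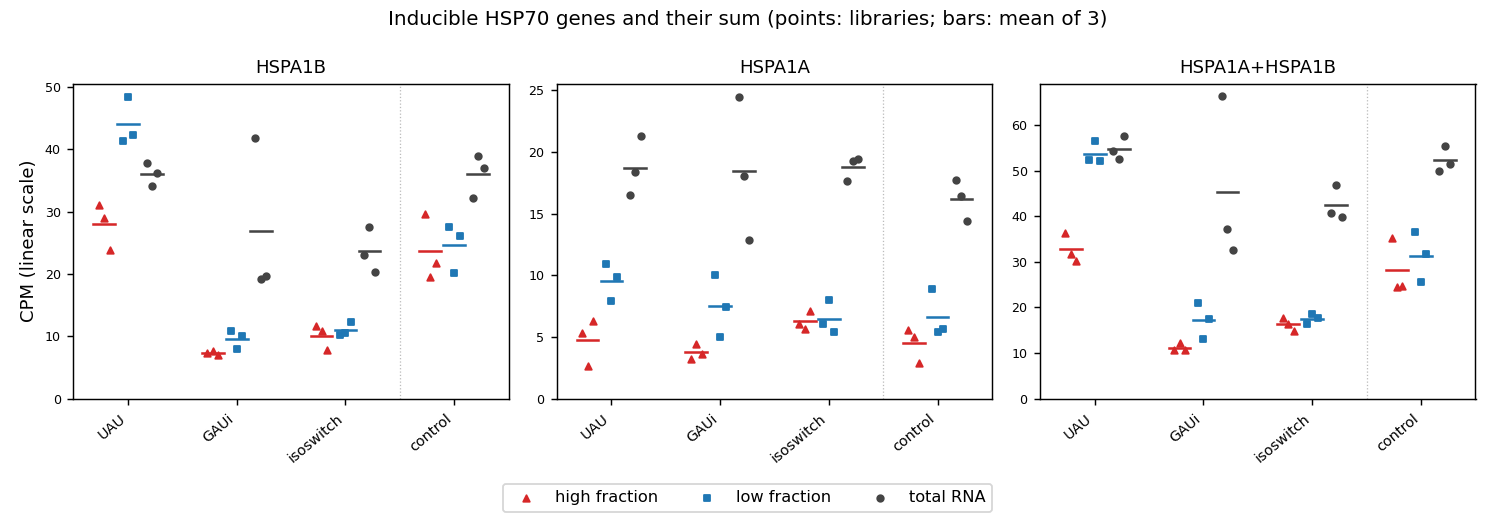
CPM (linear axis from 0) of HSPA1B, HSPA1A and their sum by line; triangles are the high fraction, squares the low fraction, circles total RNA, and bars are means of 3 libraries. HSPA1B in both fractions of GAUi and isoswitch cells lies below all control libraries, in the low fraction of UAU cells above them, and HSPA1A shows no such split.

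HSPB1 was lower in the fractions of the 2 lines with GAU CRISPRi. In the low fraction it had 132, 140 and 142 CPM in GAUi cells and 114, 175 and 132 CPM in isoswitch cells, against 275, 227 and 252 CPM in control cells. All lay below control, at log2 fold changes of -0.90 (SE 0.16, adjusted p = 0.00371) and -0.87 (SE 0.16, adjusted p = 0.00546). HSPA1B and HSPB1 were thus the 2 of 10 genes called in the low fraction of each line, beside 3.4% of all genes in GAUi (2.13% lower) and 2.58% in isoswitch cells (1.62% lower). The isoswitch call of HSPB1 was lost without isoswitch library A (-0.74, adjusted p = 0.0531).

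In the high fraction HSPB1 had 217, 215 and 225 CPM in GAUi cells, 339, 234 and 249 CPM in isoswitch cells and 261, 272 and 328 CPM in UAU cells, against 340, 408 and 362 CPM in control cells. All lines lay below control, isoswitch library A by the least. The log2 fold changes were -0.75 (SE 0.11, adjusted p = 4.3e-05), -0.44 (SE 0.11, adjusted p = 0.00762) and -0.34 (SE 0.11, adjusted p = 0.0169). The isoswitch call was lost without control library B (0.0651) or isoswitch library B (0.0538) or C (0.0713), and the UAU call without control library B (0.111) or UAU library A (0.0964) or B (0.0745). In total RNA HSPB1 did not pass in UAU (0.22, adjusted p = 0.475) or GAUi cells (-0.33, adjusted p = 0.105).

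The high fraction of GAUi cells called 3 of the 10 genes, all lower, beside 10.1% of all genes (5.48% lower): HSPA1B, HSPB1 and BAG3. BAG3 had 35.7, 33.9 and 28.4 CPM in GAUi cells, against 59.8, 50.04 and 41.4 CPM in control cells (-0.63, SE 0.12, adjusted p = 0.00149). The high fraction of isoswitch cells called only HSPA1B and HSPB1, 2 of 10, beside 11% of all genes (7.36% lower). There BAG3 had 43.5, 42.1 and 40.4 CPM and overlapped control (-0.28, adjusted p = 0.136), and HSPA8, at 168, 148 and 160 CPM against 153, 128 and 101 CPM in control cells, was at 0.30 (adjusted p = 0.0751) and passed without control library A (0.011), with no filter (0.0193) and on isoswitch and control libraries alone (0.0439). DNAJB1 had 256, 311 and 298 CPM in isoswitch cells, against 348, 332 and 405 CPM in control cells. It did not overlap control and did not pass (-0.34, SE 0.12, adjusted p = 0.0613), but did with no filter (0.00328) and on isoswitch and control libraries alone (0.0132).

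In the high fraction of UAU cells the set moved differently: 5 of the 10 genes were lower and none higher, beside 28.7% of all genes called (15.5% lower, 13.1% higher). HSP90AA1 had 605, 691 and 755 CPM in UAU cells, against 1315, 1031 and 953 CPM in control cells (log2 fold change -0.67, SE 0.10, adjusted p = 3.26e-05). HSP90AB1 had 595, 572 and 706 CPM, against 1136, 848 and 845 CPM in control cells (-0.58, SE 0.10, adjusted p = 0.000114). For both HSP90 genes every UAU library lay below every control library, and the calls stood without each library in turn.

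HSPA8 and BAG3 were lower there as well. HSPA8 had 98.9, 97.1 and 111 CPM in UAU cells, against 153, 128 and 101 CPM in control cells, an overlap with control library C (-0.30, SE 0.11, adjusted p = 0.0447). BAG3 had 38.4, 31.7 and 41.0 CPM in UAU cells, against 59.8, 50.04 and 41.4 CPM in control cells, just without overlap (-0.43, SE 0.12, adjusted p = 0.00994). HSPA8 was lost without control library A (-0.14, adjusted p = 0.412) or B (0.0976) or UAU library A (0.134) or B (0.142), by DESeq2 (0.0584), and BAG3 without control library A (-0.28, adjusted p = 0.126) or UAU library B (0.0676).

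HSPH1 (-0.24, SE 0.11, adjusted p = 0.0868) and HSF1 (0.24, SE 0.09, adjusted p = 0.0537) did not overlap control in the high fraction of UAU cells and did not pass. HSF1 had 100, 103 and 105 CPM in UAU cells, against 81.9, 92.2 and 90.1 CPM in control cells. DNAJB1 had 289, 300 and 438 CPM, against 348, 332 and 405 CPM in control cells (-0.06, adjusted p = 0.75), and passed as lower without UAU library C (-0.28, adjusted p = 0.0236). HSPH1 passed without control library B (-0.31, adjusted p = 0.0492).

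With GAU CRISPRi present, UAU overexpression went with another pattern in the high fraction. The interaction there called 6 of the 10 genes, beside 35.7% of all genes (18.1% higher, 17.6% lower). It was positive for HSP90AA1 (1.05, SE 0.14, adjusted p = 3.38e-06), HSP90AB1 (0.89), BAG3 (0.78), HSPB1 (0.66) and HSPA8 (0.59), and negative for HSF1 (-0.45, SE 0.13, adjusted p = 0.01). HSP90AA1 had 1373, 1145 and 1163 CPM in isoswitch cells, against 906, 893 and 991 CPM in GAUi cells, and so was higher with UAU overexpression in that background and lower without it. HSP90AB1 likewise had 987, 1015 and 967 CPM in isoswitch cells, against 769, 741 and 856 CPM in GAUi cells. The median over the 10 genes was 0.60, beside -0.01 over all genes, and leaving out each library in turn left 6 calls each time. In the low fraction the interaction called none of the 10 by edgeR or DESeq2 (2 at an unadjusted p under 0.05), beside 0.233% of all genes.

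The level in the high fraction relative to another RNA pool was tested as a ratio, line against control. For the high-to-total ratio, HSP90AA1 was lower in UAU cells (-0.54, SE 0.14, adjusted p = 0.015), 1 of 10 genes beside 7.32% of all (3.75% lower). In GAUi cells HSP90AA1 (-0.57, SE 0.14, adjusted p = 0.0444) and HSPA1B (-1.29, SE 0.30, adjusted p = 0.0395) were lower, 2 of 10 beside 0.718% of all (0.494% lower), and the sum of the pair was too (-1.16, SE 0.25, adjusted p = 0.029). As group means, the high fraction of HSPA1B was at 0.274 of total RNA in GAUi cells, against 0.655 in control cells. The total RNA mean of HSPA1B in GAUi cells was raised by library A, at 41.8 CPM, against 19.2 and 19.8 CPM in B and C. Library A thus lowered the GAUi ratio. The high fraction of HSP90AA1 was at 0.211 of total RNA in UAU and 0.208 in GAUi cells, against 0.310 in control cells. None passed in isoswitch cells by edgeR or DESeq2 (1 at an unadjusted p under 0.05), where 0% of all genes did.

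The calls on this ratio were each lost on leaving out any 1 of 2 or more libraries, and those in GAUi cells were lost in a fit on GAUi and control libraries alone (adjusted p = 0.121 to 0.14). In UAU cells HSP90AA1 was lost without high fraction UAU library A (-0.46, adjusted p = 0.0627) or control library A (-0.39, 0.083). In GAUi cells HSP90AA1 kept a call only without high fraction control library C or total GAUi library A or C, with -0.62 to -0.43 (adjusted p = 0.0521 to 0.159) without any other library. HSPA1B kept one only without high fraction control library C or a total RNA GAUi library (-1.41 to -1.08, adjusted p = 0.0585 to 0.139, without any other), and the sum only without high fraction GAUi library B, high fraction control library B or C or a total RNA GAUi library (-1.20 to -0.95, adjusted p = 0.053 to 0.109, without any other). HSPB1 in UAU cells was called with no filter (0.00376), by DESeq2 (0.0425) and on UAU and control libraries alone (0.00593). Without single libraries, HSP90AB1 and HSPB1 (UAU; high fraction UAU library C; 0.0386 and 0.0215), HSPA8 (GAUi; total library A; 0.0487) and HSPB1 (GAUi; total library B; 0.0487) passed.

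For the high-to-low ratio, 5 of the 10 genes passed in UAU cells, beside 6.53% of all genes (3.34% lower, 3.19% higher). HSP90AA1 (-0.60, SE 0.15, adjusted p = 0.0141), HSP90AB1 (-0.60, SE 0.16, adjusted p = 0.0213), HSPA8 (-0.57, SE 0.17, adjusted p = 0.0393) and BAG3 (-0.87, SE 0.23, adjusted p = 0.0183) were lower and HSF1 was higher (0.43, SE 0.13, adjusted p = 0.0467). As group means, HSP90AA1 was at 1.02 times its low fraction in UAU cells and 1.60 times in control cells, and BAG3 at 0.784 and 1.48 times. In GAUi cells (0.196% of all genes called) and isoswitch cells (0.00784%) none of the 10 passed by edgeR or DESeq2, with 2 and 1 at an unadjusted p under 0.05.

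Each of the 5 calls was lost without some library, and in a fit on UAU and control libraries alone (adjusted p = 0.0653 to 0.109). Without high fraction control library A, all 5 were lost (adjusted p = 0.0967 for HSP90AA1, 0.13 for HSP90AB1, 0.242 for HSPA8, 0.108 for BAG3 and 0.0938 for HSF1). HSP90AA1 was also lost without high fraction UAU library A (0.0613), BAG3 without UAU library B of the high (0.0641) or low fraction (0.0701), and HSP90AB1 without UAU library A (0.0654) or B (0.0729) of the high fraction, UAU library B (0.0585) or control library C (0.0659) of the low fraction. HSPA8 (0.0589 to 0.103) was lost without high fraction UAU library A or B or control library B, or low fraction UAU library A or C or control library B or C. HSF1 was lost with no filter (0.0822), and (0.36 to 0.46, adjusted p = 0.0528 to 0.0949) without any high fraction UAU library or control library C, or low fraction UAU library B or C or control library B or C.

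Among partners of these chaperones, the TRiC chaperonin, the ring that folds actin and tubulin, was lower in the high fraction of UAU cells in 8 of 8 subunits, beside 15.5% of all genes (median log2 fold change -0.585, beside -0.00301 over all genes). CCT5 was at -0.85 (SE 0.09, adjusted p = 1.2e-06), with 204 CPM in UAU cells, against 373 CPM in control cells. The interaction in the high fraction was positive for 8 of 8 subunits (median 1.06), beside 18.1% of all genes. In GAUi cells 4 of 8 were lower in the high fraction (CCT6A at -0.62), beside 5.48% of all genes, and in isoswitch cells 2 were higher (CCT4 at 0.40) and 1 lower (CCT6A at -0.29), beside 11% of all genes called.

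The other lists had calls in the high fraction of UAU cells too, where 28.7% of all genes were called (15.5% lower, 13.1% higher). Of 13 HSP90 co-chaperones, 6 were lower and none higher, with STIP1, which links HSP70 to HSP90, at -0.75 (SE 0.11, adjusted p = 1.61e-05) and CHORDC1 at -0.52. CHORDC1 was higher in the high fraction of isoswitch cells (0.37, adjusted p = 0.0309) and in total RNA of GAUi cells (0.45, adjusted p = 0.0379). Of 18 tested HSP70 co-chaperones and exchange factors, 8 were lower and 3 higher in the high fraction of UAU cells, with ST13 (-0.78) and the J-domain protein DNAJA2 (-0.69) lowest and DNAJB2 (0.46) highest. The share higher was near that of all genes. The interaction there was positive for 8 of the 13 (STIP1 at 1.24) and for 11 of the 18, with 2 of the 18 negative, beside 18.1% of all genes higher and 17.6% lower. Of chaperones of other compartments, 6 of 10 in the endoplasmic reticulum were lower (CALR at -0.85), and 3 of 8 in mitochondria were lower (TRAP1, the mitochondrial HSP90, at -1.08) and 1 higher, the co-chaperonin HSPE1 (0.43).

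In total RNA no member of the 8 chaperone and heat shock lists passed in UAU cells, where 0.914% of all genes did. In GAUi cells, beside 4.38% of all genes higher and 5.72% lower, 4 of 8 TRiC subunits were higher (CCT2 at 0.36) and 1 lower (CCT6A at -0.26). There 1 of 13 HSP90 co-chaperones was higher, 1 of 18 HSP70 co-chaperones lower (DNAJB6 at -0.40) and 1 of 10 chaperones of the endoplasmic reticulum lower (PDIA4 at -0.70). In isoswitch cells, beside 2.76% of all genes lower, DNAJB6 (-0.44), DNAJC2 (-0.63), CCT6A (-0.32) and PDIA4 (-0.46) were lower. Of 12 other heat-inducible genes, none passed in UAU or GAUi cells. Of 14 other HSP70 and small heat shock genes, such as HSPA6 and CRYAB, only 4 passed the filter on low counts in total RNA, and none of them was called in any line there.

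Between fractions of control cells, 12 of 13 HSP90 co-chaperones were higher and 1 lower in the high than in the low fraction, beside 32.8% of all genes higher and 33.2% lower (median 0.98, beside -0.01 over all genes). AHSA1, which stimulates HSP90 ATPase activity, was at 452 CPM in the high fraction, against 82.1 CPM in the low fraction (2.40, SE 0.09, adjusted p = 1.46e-11), and NUDC was at 2.15. Of 18 tested HSP70 co-chaperones and exchange factors, 10 were higher and 4 lower. HSPBP1, an exchange factor of HSP70, was at 2.08. BAG1, another exchange factor, was far lower there, at 64.1 CPM in the high fraction, against 197.5 CPM in the low fraction (-1.70, SE 0.10, adjusted p = 9.29e-10). HSBP1, which binds HSF1, was lower in the high than in the low fraction (-1.38), as HSF1 was. Of the 3 tested genes in the list with HSBP1, 2 were lower, the other being HSF2 (-0.56). The list also had 1 higher, HSF2BP (0.76, adjusted p = 0.042).

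Against total RNA, 6 of the 13 HSP90 co-chaperones were higher in the high fraction (AHSA1 at 1.19) and 2 lower (STIP1 at -0.77 and UNC45A at -1.67), beside 24.4% of all genes higher and 27.1% lower. Of the 18 HSP70 co-chaperones and exchange factors, 7 were higher (HSPBP1 at 1.54) and 8 lower (HSPA4 at -1.50 and HSPA4L at -1.59). In the low fraction all 13 HSP90 co-chaperones were lower than in total RNA, as both HSP90 genes were, beside 33.3% of all genes. Other chaperone lists went the same way there. Lower were 8 of 8 TRiC subunits, 8 of 8 mitochondrial chaperones and 9 of 10 chaperones of the endoplasmic reticulum, with 1 higher. Of the 18 HSP70 co-chaperones and exchange factors, 12 were lower and 2 higher, among them BAG1 (1.31, adjusted p = 3.03e-08).

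The genes with the most similar pattern were taken as those with the highest Pearson r over the 12 group means of log2 CPM, each minus the mean of its fraction, among 9017 genes; the points share the same 36 libraries and r is given with no test. For HSP90AA1 these were TRMT6 (0.98), NAA15 (0.98) and MFAP1 (0.98), for HSPA8 RNF214 (0.98), SCLT1 (0.97) and ELAVL1 (0.97), and for HSPH1 SUGT1 (0.96), SREBF1 (0.95) and DBR1 (0.94). For the sum of the inducible pair they were FKBP9 (0.95), MAPK9 (0.93) and RPH3AL (0.93). Among the 10 genes, r was 0.93 between HSP90AA1 and HSP90AB1, 0.80 between HSP90AA1 and HSPA8 and 0.81 between HSPA1B and HSPB1. Between HSPA1A and HSPA1B it was 0.27, and between HSPA1B and HSPA8, the inducible and the constitutive HSP70, it was -0.52.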

How the data were processed

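Gene-level counts from QuantSeq 3′ libraries made with 500 ng of RNA per the labels' protocols, were used as the authors deposited them. The tools named are STAR, featureCounts and DESeq2, with build hg38, per the submitters' processing notes. The strand setting, like versions and annotation, was not given in the sources used here, so reads of overlapping genes on opposite strands may not be separable.

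The 10 genes and the gene lists were chosen with earlier results of these data known. Counts were tested with the edgeR 4.0.16 quasi-likelihood test in R 4.3.3 (filterByExpr, TMM scaling), across all lines of a fraction for comparisons of lines, across the fractions of control cells for fractions, and across 2 fractions of all lines for ratios. P-values were adjusted by Benjamini-Hochberg over all genes tested, with calls at an adjusted p under 0.05. The sum of HSPA1A and HSPA1B replaced both genes in a second fit. CPM used TMM over 36 libraries. Beside the 10 genes, the text names from each list the called genes of largest change in either direction, and the 3 genes most alike in pattern (pseudocount 0.5, average log2 CPM of at least 3).

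Alternatives were DESeq2 1.42.0, RLE scaling, no filter, a fit on the compared groups alone, a replicate block and each library left out. Same-letter libraries did not correlate above 0.1 in all pairs of any comparison, so letters were not taken as pairs. The scripts were tested on simulated data. Comparisons with control share its libraries. Promoters and positions came from RefSeq tables of GRCh38.p14, and motifs were matched with Python (pandas 2.3.3).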

Additional observations from a re-analysis of the deposited data

Results flagged for a closer look

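A set of values differed between groups by a test of the difference itself. In the high fraction, the effect of UAU overexpression differed between GAUi and eGFP backgrounds for HSP90AA1 (1.05, SE 0.14), HSP90AB1 (0.89, SE 0.14), BAG3 (0.78, SE 0.18), HSPB1 (0.66, SE 0.15), HSPA8 (0.59, SE 0.16) and HSF1 (-0.45, SE 0.13), on the log2 scale.

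The effect of a line differed between the high fraction and total RNA for HSP90AA1 in UAU cells (-0.54) and, in GAUi cells, for HSP90AA1 (-0.57), HSPA1B (-1.29) and the sum of HSPA1A and HSPA1B (-1.16). Each of these calls was lost on leaving out some single libraries. Those in GAUi cells were also lost on GAUi and control libraries alone (adjusted p = 0.121 to 0.14).

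The effect of UAU overexpression differed between the high and the low fraction for HSP90AA1 (-0.60), HSP90AB1 (-0.60), HSPA8 (-0.57), BAG3 (-0.87) and HSF1 (0.43). All 5 calls were lost without high fraction control library A (adjusted p = 0.0938 to 0.242). They were also lost on UAU and control libraries alone (0.0653 to 0.109).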

How the results depend on the processing

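No called value of the 10 genes or the sum of the pair changed direction under the alternatives run. Of 231 values each, DESeq2 left 225 on the same side of the threshold, RLE scaling 229, no filter 218 and the replicate block 226; of the values that a fit on the compared groups alone could give, 170 stayed, 13 were gained and 15 lost. Larger changes in the counts of the 10 genes called are given below, and their cause was not tested. Smaller ones also occurred. In GAUi cells, no filter added HSPB1 (adjusted p = 0.0127) and HSPA1B (0.028) in total RNA. It also added HSPA8 in their low fraction (0.0311) and HSP90AB1 in their high fraction (0.0349). In the high fraction, a fit on the compared groups alone added DNAJB1 in GAUi cells (0.0408). HSPA8 in UAU cells was lost in that fit (0.062) and by DESeq2 (0.0584).

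With only the compared groups in the fit, total RNA gave 3 genes in UAU, 1 in GAUi and 5 in isoswitch cells, against 0, 4 and 1. It gave 0 in the low fraction of UAU cells against 1, and 4 in the high fraction of isoswitch cells against 2. The high-to-total ratio gave 2 in UAU and 0 in GAUi cells against 1 and 2, and the high-to-low ratio 0 in UAU cells against 5. DESeq2 gave 3 in total RNA of isoswitch cells and 2 for the high-to-total ratio in UAU cells. With no filter there were 4 in total RNA and 4 in the high fraction of isoswitch cells, 2 in the low fraction of UAU cells and 2 for the high-to-total ratio in UAU cells.

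The replicate block gave 2 genes for the high-to-total ratio in UAU cells and 1 in GAUi cells. It ended the calls of HSF1 on the high-to-low ratio in UAU cells (adjusted p = 0.0549) and of HSP90AA1 on the high-to-total ratio in GAUi cells (0.0504), and added HSPB1 on that ratio in UAU cells (0.0474), DNAJB1 in the high fraction of isoswitch cells (0.0306) and HSPA1A between fractions (0.0293). Among all genes it gave 22 calls against 86 in the low fraction of UAU cells, and 0 against 29 for the interaction there. Same-letter correlations were 0.0408 to 0.0649 between UAU and control libraries of the high fraction, where each library correlated best with its own letter, a hint from the data and not the design.

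Leaving out each library in turn gave 2 to 6 genes in GAUi total RNA, 0 to 1 in isoswitch total RNA, 0 to 1 in the UAU and 1 to 2 in the isoswitch low fraction, 2 to 6 in the UAU and 1 to 3 in the isoswitch high fraction. It gave 6 to 8 for high against low fraction, 8 to 9 for high fraction and 8 to 10 for low fraction against total RNA, 0 to 3 for the high-to-total ratio in UAU and in GAUi cells, and 0 to 5 for the high-to-low ratio in UAU cells. The other counts were constant.

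Over all genes, calls in total RNA were 113 in UAU cells, with 186 by DESeq2, 236 unfiltered and 916 on the compared groups alone, 1248 in GAUi cells (329 alone) and 500 in isoswitch cells (1898 alone). In the low fraction there were 86 in UAU cells (177 by DESeq2, 339 unfiltered, 0 alone), 423 in GAUi (743 unfiltered, 271 alone) and 321 in isoswitch cells (538 unfiltered, 105 alone). The interaction gave 3 in total RNA (41 by DESeq2, 95 unfiltered) and 29 in the low fraction (207 and 251). The high-to-total ratio gave 918 in UAU (1447 alone), 90 in GAUi (211 by DESeq2, 278 unfiltered, 0 alone) and 0 in isoswitch cells (6, 18 and 15). The high-to-low ratio gave 833 in UAU (226 alone), 25 in GAUi (259 by DESeq2, 44 by RLE scaling, 103 unfiltered) and 1 in isoswitch cells (134 by DESeq2, 215 unfiltered). No filter moved the median of all genes by -0.121 between the high and low fraction. The low counts of HSPA1A, from 13 a library, limit what could be detected for that gene.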
